A study of Gallus gallus with 23 samples.

Results

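Growth plate cartilage of chick embryos that had been immobilised until embryonic day 15 (E15) was set against cartilage of younger, moving embryos at E13. The comparison used 12 of the 23 arrays of the series. They were 6 arrays of E15 embryos given decamethonium bromide (DMB) and 6 of E13 control embryos, and each set held 3 arrays of distal femur and 3 of proximal tibia (the tibiotarsus). Arrays were chosen by their labelled treatment, age and skeletal element, and no measured value entered the choice. DMB is a neuromuscular blocker that keeps muscle in rigid paralysis, and its dosing had begun before E13. Control eggs received Tyrode's salt solution on the same schedule. Each array held RNA pooled from the cartilage of several embryos, and bone, marrow and red cells were kept out at dissection. The remaining arrays were E15 controls (2 femur and 3 tibia, after the authors had left out 1 femur array) and E12 controls (3 femur and 3 tibia), and they served to measure the stage change in moving embryos.

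A growth plate lengthens a bone by a sequence in which chondrocytes divide, stop dividing, enlarge and mineralise their matrix before vessels and osteoblasts enter. Indian hedgehog and PTHrP time the exit from division, and BMP, FGF and Wnt signals adjust it. In the chick limb at these ages this sequence runs in an embryo that already moves, so age and time spent moving normally advance together. Age and loss of movement differ together between immobilised E15 and E13 cartilage. The E15 control arrays have the age of the immobilised arrays, so the difference between these groups holds age equal. No array came from immobilised embryos at E13. The immobilised cartilage's own change from E13 was therefore not measured. Rises and falls in immobilised cartilage below are differences from moving E13 embryos.

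The arrays carried the defining genes of cartilage. All 10 cartilage markers on the array lay above the array median (5.83 on the log2 scale) in both groups, and their mean level was 12.16 to 12.39 in immobilised E15 arrays and 12.17 to 12.37 in E13 control arrays. Markers of other tissues differed between the groups. The 6 skeletal muscle markers on the array averaged 4.04 to 5.47 in immobilised E15 arrays and 7.42 to 7.86 in E13 arrays, with 1 and 5 of the 6 above the array median. The 2 tendon markers went opposite ways, with TNMD at 9.94 to 10.57 in immobilised and 8.68 to 9.29 in E13 cartilage and DPT at 3.74 to 5.68 in immobilised and 6.21 to 7.34 in E13 cartilage. Higher in immobilised cartilage were the means of the 3 erythroid markers (9.85 to 10.68, against 9.24 to 9.69 at E13), the 4 endothelial markers (7.66 to 7.87, against 6.89 to 7.69), the 3 leukocyte and osteoclast markers (5.92 to 6.71, against 5.34 to 6.10) and the 2 osteoblast markers (13.00 to 13.34, against 12.78 to 12.96). The 2 osteoblast markers were COL1A1 and COL1A2, because SP7 and BGLAP, also listed, had no probe set named for them. In RNA from whole tissue, fewer cells of a type and less RNA per cell cannot be told apart. Sample descriptions also carry an array code. All 3 immobilised femur arrays had code 05 and all 3 E13 femur arrays code 07, so that in the femur the code and the comparison cannot be told apart. The tibia groups held the same codes, 07 and 09. Values are log2 RMA levels throughout, differences are immobilised E15 minus E13 control unless stated, and errors are standard errors of the limma fit. RMA values carry no detection call, so a level well under the array median was not shown to be above background, and no fold is given for such genes.

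Over both elements, 853 of 11004 probe sets were called higher (7.75%) and 933 lower (8.48%) in immobilised E15 than in E13 cartilage at an adjusted p under 0.05. In the femur 714 were called higher (6.49%) and 720 lower (6.54%). In the tibia 129 were called higher (1.17%) and 253 lower (2.3%). Of the calls, 276 were shared in the same direction, which is 19.2% of the femur calls and 72.3% of the tibia calls, and 6 were called in opposite directions. The immobilised and E13 arrays did not overlap in either element for 1259 of the 11004 probe sets (11.4%). Of these, 1025 were called over both elements. The largest rises and falls named below were taken from those 1025, so their lack of overlap with E13 was set by the choice. The femur change exceeded the tibia change for 36 probe sets (0.327%) and fell below it for 4 (0.0364%). With the array code as a block the calls over both elements numbered 789 (347 higher and 442 lower of 11004) and those in the femur 226. The tibia calls then numbered 389, and no difference between the elements was called (910 had an unadjusted p under 0.05). Counts within the gene lists below are to be read beside these calls over all probe sets.

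**Figure D1:**
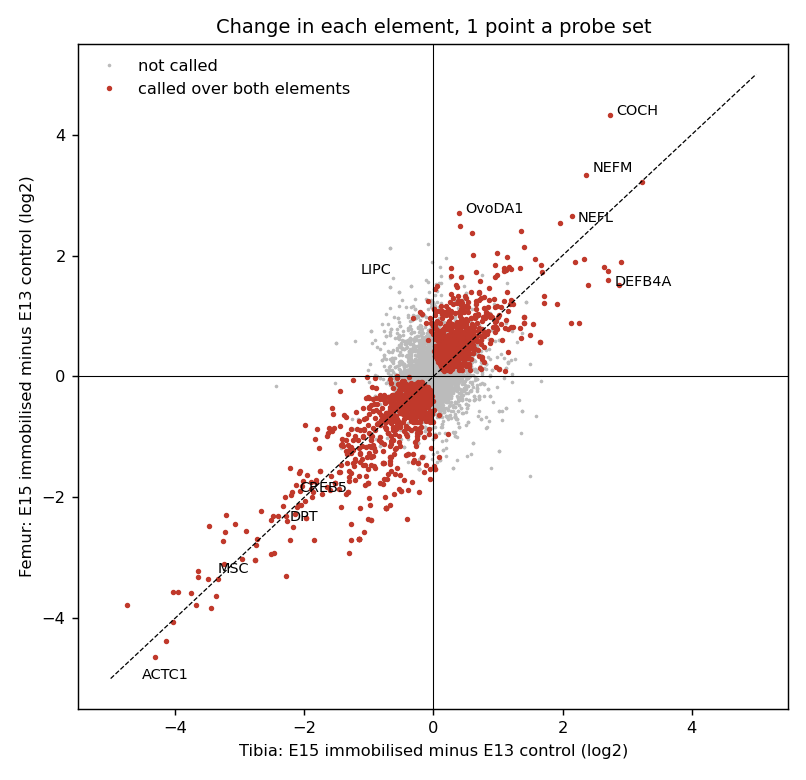
Log2 difference between immobilised E15 and E13 control cartilage in the femur (vertical axis) and in the tibia (horizontal axis), 1 point a probe set past the filter, with red points for probe sets called over both elements together and a dashed line where the changes are equal. Large falls and rises lie along that line (Pearson's r = 0.629, Spearman's rho = 0.45 across 11004 probe sets of the same 12 arrays, a description only), and 276 probe sets were called in the same direction in both elements.

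Stage-linked genes were defined on arrays outside this comparison, as those called between E15 and E12 control cartilage. There 1188 probe sets were higher at E15 (10.8%) and 1368 lower (12.4%). Of the 1188 that were higher, 334 (28.1%) were also higher in immobilised E15 than in E13 cartilage, 99 (8.33%) were lower and 755 (63.6%) were not called. Of the 1368 that were lower, 390 (28.5%) were also lower in immobilised cartilage, 33 (2.41%) were higher and 945 (69.1%) were not called. Most of those not called still differed in the direction of the stage change, 585 of the 755 and 740 of the 945. Against the background of 7.75% higher and 8.48% lower, both shares moving with stage were above the share of all probe sets called in that direction. Both comparisons use the same estimate of the spread of each probe set, so their calls are not fully independent. The median difference was 0.15 for the genes higher with stage and -0.15 for those lower with stage, beside 0.00 over all probe sets tested. In E15 control against E13 control cartilage, which shares the E13 arrays, the same medians were 0.30 and -0.30, and 558 probe sets were called higher (5.07%) and 749 lower (6.81%) in all. In the femur that comparison also set code 05 (E15 control) against code 07 (E13), so code and age cannot be told apart there. The interval from E12 to E15 is longer than that from E13 to E15. A stage change is therefore described as missing only where immobilised and control E15 cartilage themselves differed, a comparison with 648 probe sets called higher (5.89%) and 629 lower (5.72%) in immobilised cartilage.

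**Figure D2:**
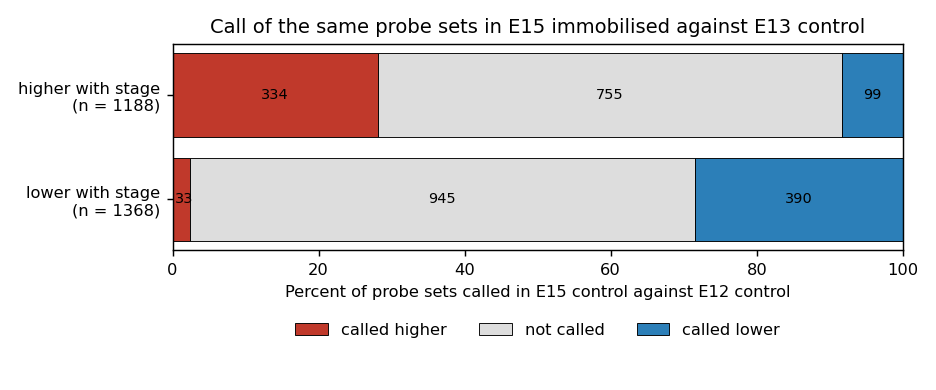
Share of the stage-linked probe sets (called between E15 and E12 control cartilage) that were called higher, called lower or not called in immobilised E15 against E13 control cartilage. The same-direction shares were 28.1% of the genes higher with stage and 28.5% of those lower with stage.

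Some genes of the early embryo were lower in immobilised E15 than in E13 cartilage. HMGA2, a chromatin protein of growing embryonic tissue, had a lowest, median and highest level of 6.74, 6.89 and 7.25 in immobilised E15 cartilage, against 7.70, 7.94 and 8.28 in E13 cartilage. The groups did not overlap in either element, and HMGA2 was lower by 0.98 ± 0.10 (adjusted p = 3.41e-06). E15 controls spanned 6.91 to 7.47, and immobilised and control E15 cartilage differed by -0.21, with a 95% interval of -0.44 to 0.02. CRABP1, which binds retinoic acid in the cytoplasm, fell by 0.77 ± 0.15 (adjusted p = 0.00212). Of the 11 measured early embryonic mRNA-binding and growth genes, 5 fell and none rose, with a median of -0.16, and 7 of the 11 were lower in E15 than in E12 control cartilage.

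PENK and FREM2 were lower by far more, both in immobilised and in control E15 cartilage. PENK, the precursor of enkephalin peptides, had levels of 4.25, 4.22 and 4.36 in immobilised femur and 4.28, 4.24 and 3.84 in immobilised tibia, against 5.92, 6.55 and 7.29 in E13 femur and 6.45, 6.45 and 6.67 in E13 tibia. Every immobilised array lay below every E13 array, at a level of 4.15 to 5.13 in E15 controls. The fall was 2.36 ± 0.22 (adjusted p = 1.09e-06), and the stage change on the other arrays was -2.50. FREM2, a basement membrane protein of the Fraser complex, fell by 2.45 ± 0.28 (adjusted p = 7.64e-06) beside a stage change of -2.32 over the longer span from E12. Its mean level was 7.15 at E12, 6.46 at E13, 4.80 in E15 controls and 4.01 in immobilised E15 cartilage. PENK and FREM2 were taken for calls in the same direction in both comparisons, so that agreement follows from the choice and adds no support. OSR1, a transcription factor of limb connective tissue, fell by 1.14 ± 0.16 (adjusted p = 6.78e-05), and KERA, the corneal keratan sulphate proteoglycan keratocan, by 0.90 ± 0.20 (adjusted p = 0.00463). HOXC10, a homeobox gene of limb position, fell by 1.22 ± 0.25 on 1 probe set (adjusted p = 0.0027) and by 0.69 ± 0.18 on the other (adjusted p = 0.0143). Of the 16 measured limb position and patterning genes, 2 fell and 1 rose in immobilised cartilage, while 7 fell and none rose with stage in the controls.

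Cell cycle genes were lower in immobilised E15 than in E13 cartilage by small amounts. Of the 33 measured genes of S phase and DNA replication, 9 fell and 1 rose (median -0.15), and 16 fell with stage in the controls. RPA2, a subunit of the protein that covers single-stranded DNA, fell by 0.43 ± 0.10 (adjusted p = 0.00577). DUT, which keeps uracil out of DNA, fell by 0.33 ± 0.08 (adjusted p = 0.00627). Of the 40 measured genes of G2 and mitosis, 7 fell and none rose (median -0.12). NCAPH, a condensin subunit, fell by 0.49 ± 0.09 (adjusted p = 0.00129), and its other 3 probe sets were also called lower. CDK1, the kinase that drives entry into mitosis, had levels of 9.07 to 9.42 in immobilised cartilage against 9.53 to 9.68 in E13 cartilage and fell by 0.33 ± 0.06 (adjusted p = 0.000839). The CDK1 stage change in controls was -0.04 and was not called. With the array code as a block 1 S phase gene and 2 mitosis genes were called lower, none were called higher, and the medians were -0.13 and -0.13.

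Some antimicrobial and myeloid genes were higher than at E13 both in immobilised and in control E15 cartilage. LY86, a partner of an innate immune receptor on macrophages and B cells, had a lowest and median level of 8.86 and 9.56 in immobilised E15 cartilage, against a median and highest level of 7.77 and 8.31 at E13. The groups did not overlap, and LY86 rose by 1.77 ± 0.17 (adjusted p = 1.21e-06), or 3.4-fold. E15 controls spanned 8.97 to 10.06, and their difference from immobilised cartilage was -0.03 (95% interval -0.41 to 0.35). A row of avian beta-defensin genes, which encode cationic antimicrobial peptides, rose together. DEFB4A was higher by 2.15 ± 0.45 (adjusted p = 0.00346), AvBD1 by 2.14 ± 0.49 (adjusted p = 0.00635) and AvBD6 by 2.20 ± 0.54 (adjusted p = 0.00968). AvBD7 rose by 2.22 ± 0.61 (adjusted p = 0.0179), and its call was lost without E13 femur replicate 1, E13 tibia replicate 1 or immobilised tibia replicate 1 (highest adjusted p 0.0516). AvBD7, AvBD6, DEFB4A and AvBD1 lie next to each other in the RefSeq annotation, and their probe sets may share sequence. The rule took such genes for calls in the same direction here and with stage in the controls, so that agreement follows from the choice.

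Other granulocyte genes showed the same spread between arrays. LECT2, a secreted chemotactic protein, had levels of 6.28, 7.19 and 9.15 in immobilised E15 cartilage and 3.83, 4.99 and 7.10 in E13 cartilage, and rose by 2.40 ± 0.57 (adjusted p = 0.00767). The groups overlapped for LECT2 through their highest E13 and lowest immobilised arrays. LYG2, a goose-type lysozyme, rose by 2.23 ± 0.49 (adjusted p = 0.00475). CSTA, a cysteine protease inhibitor, rose by 1.70 ± 0.43 (adjusted p = 0.012), but with the array code as a block its adjusted p was 0.0955 and that of AvBD6 was 0.0897. Of the 15 measured leukocyte and osteoclast genes, 8 rose and 1 fell in immobilised cartilage (median 0.57), 11 rose and none fell with stage in the controls, and none was called with the code as a block (median 0.41). PTPRC, the leukocyte surface phosphatase CD45, rose by 0.63 ± 0.14 (adjusted p = 0.00648).

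Some blood and vessel genes also rose, but none was called in the tibia alone. Of the 8 measured erythroid genes, 4 rose and none fell (median 0.60). HBAD, an alpha-type globin, had levels of 12.02, 12.32 and 13.05 in immobilised E15 cartilage against 11.26, 11.61 and 12.01 at E13, and rose by 0.78 ± 0.13 (adjusted p = 0.000516). SLC4A1, the red cell anion exchanger, rose by 0.86 ± 0.19 (adjusted p = 0.00464). Of the 15 measured genes of endothelium and pericytes, 5 rose and none fell (median 0.27), among them PECAM1, an endothelial adhesion molecule, by 0.75 ± 0.17 (adjusted p = 0.00581). In the tibia alone none of either list was called (medians 0.34 and 0.04), and in the femur, where array code and comparison cannot be told apart, 4 erythroid and 5 endothelial genes rose and 1 endothelial gene fell (medians 0.85 and 0.51). Blocking on the array code left 2 erythroid genes and 1 endothelial gene called, all higher. The erythroid, endothelial and leukocyte markers given above moved with these lists, and their part in the other rises was not tested.

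Calls among hypertrophy genes were counted in each element, and the difference between elements was tested gene by gene. Of the 25 measured prehypertrophic and hypertrophic genes, 15 rose and 1 fell with stage in the controls (median 0.42). In immobilised against E13 cartilage 5 rose and 1 fell (median -0.01). In the femur 8 rose and none fell (median 0.26), and in the tibia none rose and 1 fell (median -0.06). The difference between the elements was called for 1 of the 25, higher in the femur, and for none with the array code as a block. DMP1, a phosphoprotein of mineralising matrix, rose, averaged over both elements, by 1.04 ± 0.27 (adjusted p = 0.0137). SPP1, osteopontin, rose by 0.79 ± 0.20 (adjusted p = 0.012), MMP9, the gelatinase of cartilage resorption, by 0.68 ± 0.14 (adjusted p = 0.00316, and by 0.98 on its other probe set) and CLU, the chaperone clusterin, by 0.58 ± 0.12 (adjusted p = 0.00384). With the array code as a block SPP1 was the only 1 of the 25 called on the probe sets counted (adjusted p = 0.0235), and the other probe set of MMP9 was also called (adjusted p = 0.0197). COL10A1, the collagen of hypertrophic cartilage, had levels of 10.29 to 11.55 in immobilised E15 cartilage, 11.42 to 12.09 in E15 controls and 10.34 to 11.63 in E13 cartilage. Its difference from E13 was -0.13 (95% interval -0.69 to 0.42), beside a stage change of 1.00 in the controls whose adjusted p was 0.0543 once E15 control femur replicate 1 was left out, and its difference from E15 controls, -0.68, did not pass the test (adjusted p = 0.128).

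Among the genes whose changes differed between elements were PHOSPHO1, IFITM5 and TMEM119, which take part in mineral deposition or osteoblast differentiation. Of these, only IFITM5 was taken by the naming rule. PHOSPHO1 and TMEM119 were picked by hand with their levels already known. Their calls, and the lack of overlap of PHOSPHO1, therefore add no support for a mineral theme. Genes of other functions, such as OvoDA1 and LIPC, also differed between elements and are given further below. PHOSPHO1, the phosphatase that supplies phosphate inside matrix vesicles, had levels of 10.10, 9.69 and 9.61 in immobilised femur against 8.48, 8.73 and 9.13 in E13 femur. In the tibia it had 8.49, 8.43 and 8.64 in immobilised arrays against 9.04, 8.86 and 8.85 in E13 arrays. The groups did not overlap in either element and lay in opposite order. The femur change was 1.02 and the tibia change -0.40, and they differed by 1.42 ± 0.27 (adjusted p = 0.0344). IFITM5, a membrane protein of mineralising osteoblasts, changed by 1.04 in the femur (adjusted p = 0.00123) and by -0.74 in the tibia (adjusted p = 0.0303), a difference of 1.78 ± 0.26 (adjusted p = 0.00673). TMEM119, an osteoblast differentiation factor, changed by 0.54 in the femur (adjusted p = 0.00124) and by -0.37 in the tibia (adjusted p = 0.0417), a difference of 0.91 ± 0.14 (adjusted p = 0.00673). PHEX, the phosphate-regulating endopeptidase, changed by 1.45 and 0.03, but that difference did not pass the test (adjusted p = 0.126).

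The array code bears on the femur side of this split. With the code as a block the PHOSPHO1, IFITM5 and TMEM119 differences between elements had adjusted p of 0.397, 0.261 and 0.347. Within code 05 alone, IFITM5 levels were 9.98, 9.91 and 9.87 in immobilised femur against 8.78 and 9.11 in E15 control femur. PHOSPHO1 levels there were 10.10, 9.69 and 9.61 against 8.90 and 9.42. Those values compare immobilised with control femur at E15 only. In the femur the code and the comparison with E13 still cannot be told apart. The tibia falls of IFITM5 were -0.53 within code 09 and -1.17 within code 07. The PHOSPHO1 difference between elements also kept its call in only 2 of 12 fits that each left out 1 array, those without E13 femur replicate 3 or immobilised femur replicate 3 (highest adjusted p 0.118, without E13 femur replicate 1). IFITM5 and TMEM119 kept theirs in all 12, but their falls in the tibia alone rested on few arrays. The tibia call of IFITM5 was lost without replicate 1 or 3 of either tibia group (highest adjusted p 0.177), and that of TMEM119 without any tibia array but immobilised replicate 3 (highest adjusted p 0.21). Of the 17 measured osteoblast and periosteum genes, 7 rose and none fell in the femur (median 0.41), none rose and 3 fell in the tibia (median -0.10), and 2 were called between elements. Beside IFITM5 and TMEM119, the third that fell in the tibia was POSTN, the periosteal matrix protein periostin, which fell by 1.00 (adjusted p = 0.000186). The osteoblast marker means above, which rest on the collagen genes COL1A1 and COL1A2 alone, were higher in immobilised than in E13 arrays.

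**Figure D3:**
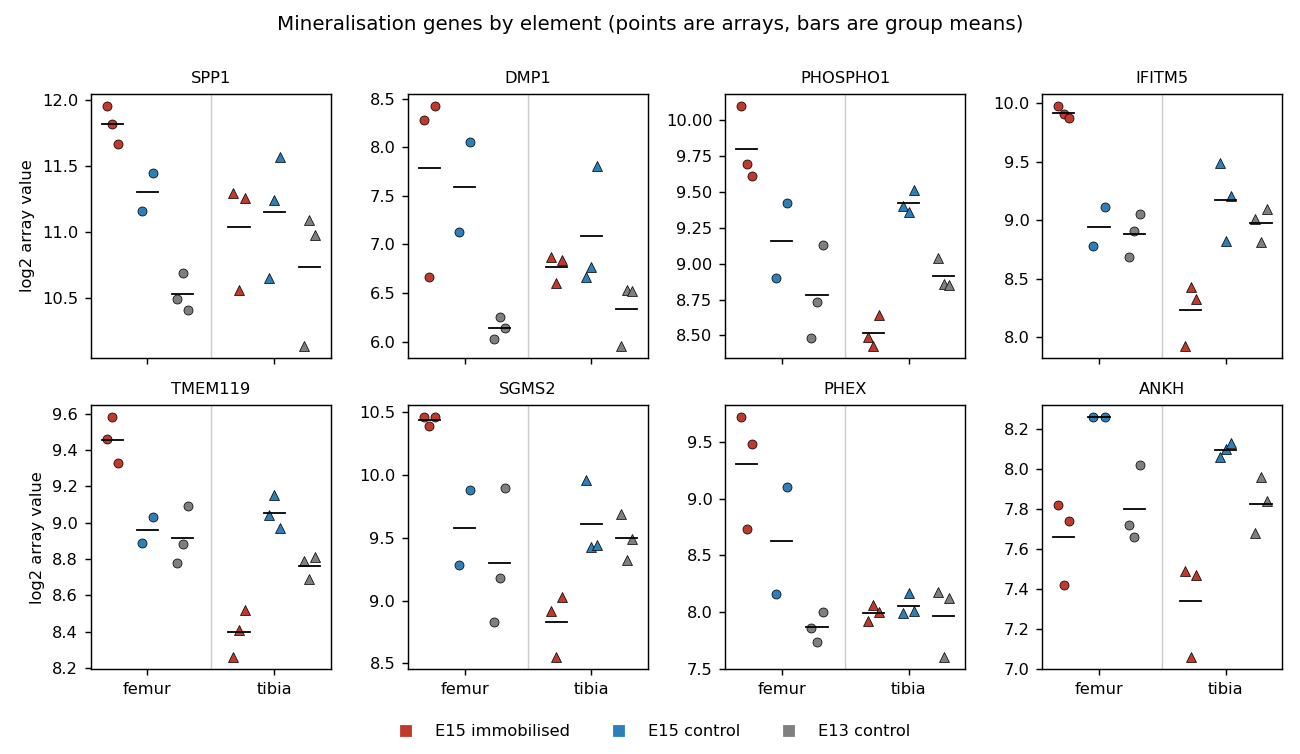
Log2 level of 8 mineralisation and osteoblast genes in each array, for immobilised E15, control E15 and control E13 femur and then tibia, with the group mean as a bar. By group mean, IFITM5, PHOSPHO1, TMEM119 and SGMS2 are highest in immobilised femur and lowest in immobilised tibia, and DMP1 and SPP1 are higher in both E15 groups than at E13.

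Several stage changes of the moving limb were missing in immobilised cartilage. GPR1, a receptor for the adipokine chemerin, had levels of 7.03, 7.61 and 7.78 in immobilised E15 cartilage against 7.17, 7.34 and 7.58 in E13 cartilage. E15 controls lay above both, at 8.09 to 8.70. The difference from E13 was 0.15 (95% interval -0.09 to 0.39), that from E15 controls was -0.96 (adjusted p = 5.02e-05), and the stage change in controls was 1.14. ALDH1A2, which makes retinoic acid, had 6.18 to 7.05 in immobilised, 7.26 to 8.32 in E15 control and 6.19 to 7.29 in E13 cartilage. Its difference from E13 was -0.09 (95% interval -0.49 to 0.32) and from E15 controls -1.10 (adjusted p = 0.00192). MFAP5, a microfibril glycoprotein, differed by -0.28 from E13 (95% interval -0.62 to 0.07) and by -1.02 from E15 controls (adjusted p = 0.000873). ITGB3, the integrin subunit of osteoclasts and platelets, differed by 0.12 (95% interval -0.18 to 0.43) and by -0.74 (adjusted p = 0.00487). The stage change of the controls, over the longer span from E12, was 1.11 for ALDH1A2, 0.74 for MFAP5 and 0.81 for ITGB3. These 4 genes were chosen for having no call against E13 and a called difference from E15 controls. Their small differences from E13 therefore follow from the choice and add no support.

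Other genes that fell with stage in the controls were higher in immobilised than in control E15 cartilage. CHL1, a cell adhesion molecule of the L1 family, had levels of 7.04, 7.40 and 7.94 in immobilised E15 cartilage, against 5.55, 6.24 and 6.63 in E15 controls and 6.56, 7.38 and 7.63 at E13. Every immobilised array was above every E15 control array, by 1.30 on average (adjusted p = 9.02e-05). The CHL1 difference from E13 was 0.19 (95% interval -0.16 to 0.53), beside a stage change of -1.53 in the controls. SFRP2, a secreted Wnt modulator, was higher by 1.25 than in E15 controls (adjusted p = 0.00461), and its difference from E13 was 0.63 (95% interval 0.11 to 1.14, adjusted p = 0.0921). GFRA1, the receptor for glial cell line-derived neurotrophic factor, was higher by 0.91 than in E15 controls (adjusted p = 0.00187) and differed from E13 by 0.28 (95% interval -0.06 to 0.61). DCLK1, a microtubule-binding kinase, was higher by 0.94 than in E15 controls (adjusted p = 0.00267) and differed from E13 by 0.31 (95% interval -0.05 to 0.67). The stage changes in the controls were -1.06 for SFRP2, -0.91 for GFRA1 and -0.91 for DCLK1. CHL1, SFRP2, GFRA1 and DCLK1 were also chosen for having no call against E13 and a called difference from E15 controls. Their lack of a call against E13 therefore follows from the choice and adds no support. MMP10, the stromelysin that cleaves proteoglycans, gave an uncertain picture. It rose in E15 controls by 2.65 since E12, and in immobilised cartilage it was 0.96 above E13 (adjusted p = 0.0582) and 1.37 below E15 controls. The call against E15 controls was lost without E15 control femur replicate 1 (adjusted p = 0.0974).

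COMP, the pentameric matrix protein of cartilage and tendon, rose part of the way. Its levels were 10.63, 11.06 and 10.92 in immobilised femur and 10.41, 10.28 and 10.34 in immobilised tibia, against 10.42, 10.52 and 9.02 in E13 femur and 9.27, 9.88 and 9.86 in E13 tibia. COMP rose by 0.78 ± 0.21 (adjusted p = 0.0156), and E15 controls had 10.91 to 11.62. The difference from E15 controls was -0.79 (adjusted p = 0.0255), but that call was lost without any 1 of 5 arrays, which were E15 control femur replicates 1 and 2, E15 control tibia replicate 3, immobilised femur replicate 1 and immobilised tibia replicate 2 (highest adjusted p 0.094). With the code as a block the rise from E13 had an adjusted p of 0.134.

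Some genes moved against the stage change. DPT, dermatopontin, a matrix protein that binds decorin, had levels of 4.45, 5.06 and 5.68 in immobilised femur and 3.74, 4.51 and 4.17 in immobilised tibia. E15 controls had 8.25 and 8.23 in the femur and 7.30, 7.40 and 7.36 in the tibia. E13 cartilage lay between them, with 7.34, 7.25 and 7.04 in the femur and 6.21, 6.51 and 6.70 in the tibia. DPT thus fell by 2.24 ± 0.22 from E13 (adjusted p = 1.53e-06), while it rose by 1.34 with stage in the controls. The groups did not overlap in either element. ANXA1, a phospholipid-binding annexin, fell by 1.22 ± 0.17 (adjusted p = 0.0001) beside a stage change of 0.97. ITIH5, of the family that links to hyaluronan, fell by 0.82 ± 0.13 (adjusted p = 0.000297) beside 0.85. ANGPTL2, a secreted angiopoietin-like protein, fell by 0.75 ± 0.08 (adjusted p = 6.69e-06) beside 0.46.

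In the other direction, PLD5, of the phospholipase D family, rose by 0.62 ± 0.10 (adjusted p = 0.000265) beside a stage change of -0.66. LIMK2, a kinase that acts on actin through cofilin, rose by 0.83 ± 0.09 (adjusted p = 7.55e-06) beside -0.35, a stage call lost without E15 control femur replicate 1 (adjusted p = 0.0977). Apart from DPT, these genes were chosen after their values were seen.

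COCH, NEFM, NEFL and BCHE rose in immobilised cartilage without a called change in the moving limb. COCH, cochlin, a matrix protein best known from the inner ear, had levels of 8.50, 9.07 and 9.36 in immobilised femur and 7.51, 7.38 and 7.46 in immobilised tibia. E15 controls had 4.09 to 4.98, and E13 cartilage had 4.50, 4.26 and 5.17 in the femur and 4.51, 4.74 and 4.87 in the tibia. All 6 immobilised arrays were above all others, and COCH rose by 3.54 ± 0.19 (adjusted p = 1.85e-09). VIT, vitrin, a matrix protein that shares the domain types of cochlin, rose by 1.55 ± 0.20 (adjusted p = 2.94e-05), while E15 controls were 0.75 above E13. BCHE, butyrylcholinesterase, which hydrolyses choline esters, had levels of 8.30 to 9.28 in immobilised cartilage, against 5.83 to 7.27 in E15 controls and 6.27 to 7.37 at E13. BCHE rose by 1.89 ± 0.19 (adjusted p = 1.82e-06) and was 1.95 above E15 controls (adjusted p = 5.75e-06). AGT, the angiotensin precursor, rose by 2.05 ± 0.33 (adjusted p = 0.000382). PIEZO2, a mechanically gated cation channel, had levels of 9.84, 9.98 and 10.05 in immobilised cartilage, against 9.21 to 9.49 in E15 controls and 9.25, 9.56 and 9.72 at E13. PIEZO2 rose by 0.44 ± 0.08 over E13 (adjusted p = 0.00121) and was 0.58 above E15 controls (adjusted p = 0.000249). Of the 14 measured immediate early and stretch-responsive genes, 1 rose and 2 fell (median -0.11), beside 7.75% higher and 8.48% lower over all probe sets.

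The neurofilament genes NEFM and NEFL, which encode subunits of the axonal cytoskeleton, were also among the largest rises. NEFM had levels of 7.33, 7.29 and 6.98 in immobilised femur and 5.94, 6.38 and 6.15 in immobilised tibia, against 3.84, 3.83 and 3.95 in E13 femur and 4.30, 3.73 and 3.34 in E13 tibia. NEFM rose by 2.85 ± 0.16 (adjusted p = 4.01e-09) and NEFL by 2.40 ± 0.13 (adjusted p = 3.38e-09), and neither overlapped E13 or E15 control arrays. In the RefSeq annotation NEFL, NEFM, ADAMDEC1 and STC1 follow each other on the chromosome, and all 4 were higher. ADAMDEC1 and STC1 were chosen after their values were seen, and whether position bears on these rises was not tested. ADAMDEC1, a disintegrin-like metalloprotease, rose by 1.49 ± 0.15 (adjusted p = 1.58e-06), and STC1, the secreted glycoprotein stanniocalcin, by 0.92 ± 0.12 (adjusted p = 5.49e-05). DOCK5, the neighbour before NEFL, differed by -0.04 (adjusted p = 0.858). The other genes of nerve that were measured were not called higher. SOX10, the Schwann cell transcription factor, did not pass the filter and was not tested. It averaged 3.61 in immobilised and 4.19 in E13 cartilage, below the array median in both. Of the 6 measured genes of neurons and Schwann cells, NEFL and NEFM were the 2 that rose. FOXD3, a neural crest transcription factor, fell by 1.20 ± 0.23 (adjusted p = 0.00142). It averaged 4.33 in immobilised and 5.53 in E13 cartilage, also below the array median in both.

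**Figure D4:**
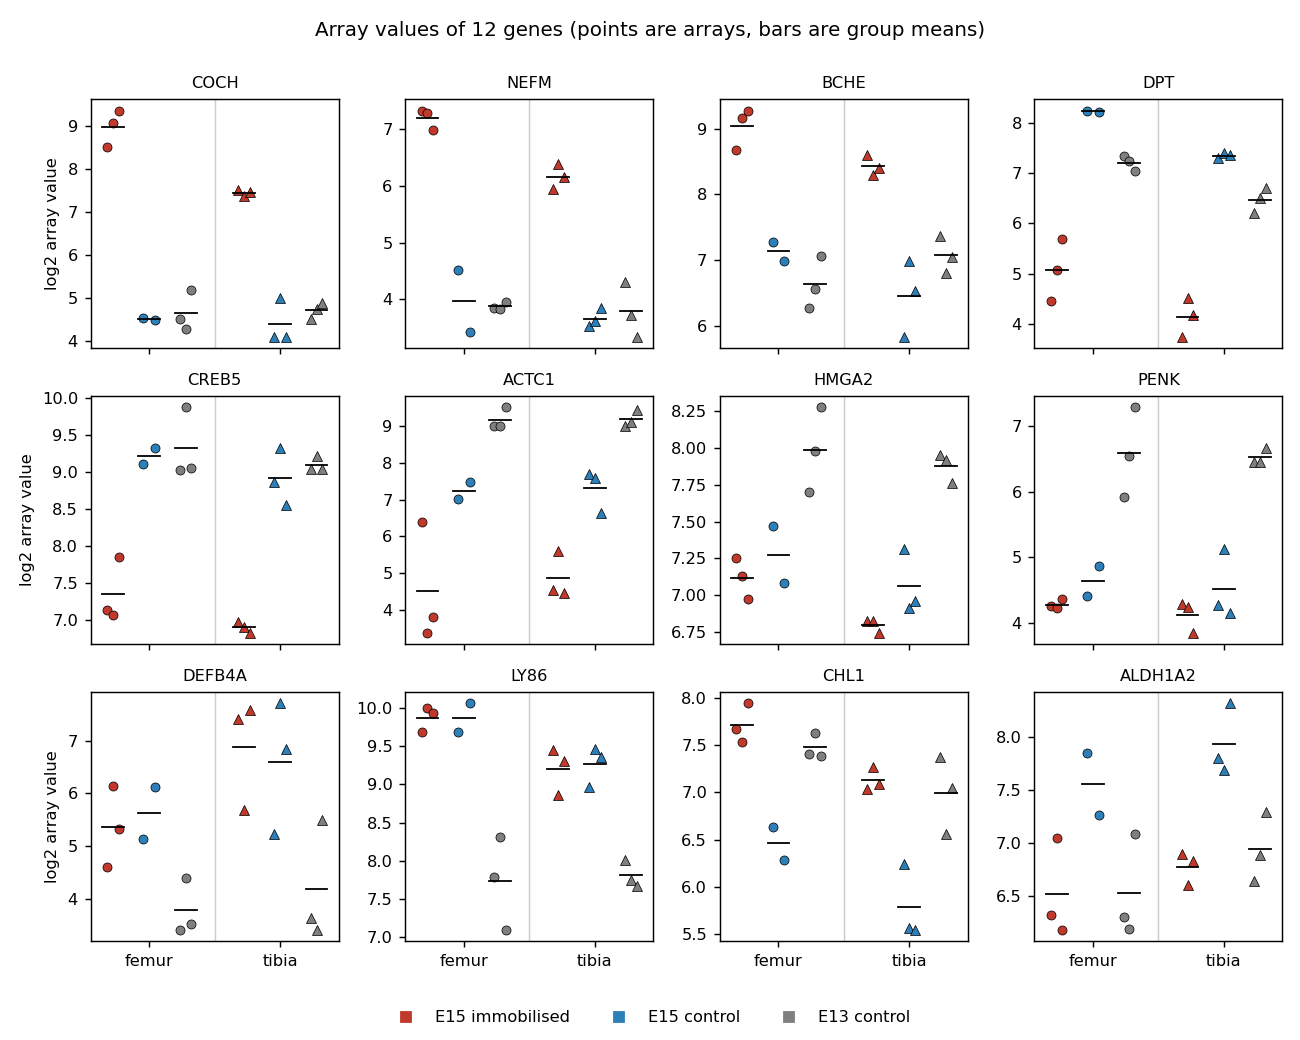
Log2 level of 12 genes in each array, for immobilised E15, control E15 and control E13 femur and then tibia, with the group mean as a bar. COCH, NEFM and BCHE are high in immobilised cartilage alone, and DPT, CREB5 and ACTC1 are low there. HMGA2, PENK, LY86 and DEFB4A lie near the E15 controls. CHL1 and ALDH1A2, chosen for having no call against E13, lie near the E13 controls.

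Tendon and joint genes split by member. TNMD, tenomodulin, the membrane protein of mature tendon cells, had levels of 9.94 to 10.57 in immobilised cartilage, 8.46 to 9.47 in E15 controls and 8.68 to 9.29 at E13. TNMD rose by 1.27 ± 0.16 (adjusted p = 2.86e-05), a rise that the E15 controls did not show, with 0.12 from E13. CREB5, a transcription factor of superficial articular cartilage in mammals, fell by 2.09 ± 0.17 (adjusted p = 2.52e-07), and TPPP3, a tubulin-binding protein that marks tendon sheath and synovial joints in the mouse, by 1.87 ± 0.18 (adjusted p = 1.27e-06). CREB5 levels were 6.82, 7.02 and 7.85 in immobilised cartilage, against 8.56 to 9.33 in E15 controls and 9.03 to 9.88 at E13. Of the 26 measured genes of tendon, joint and fibrous tissue, 7 rose and 5 fell. In the femur 9 rose and 5 fell (median 0.32), and in the tibia 1 rose and 5 fell (median -0.21). No difference between the elements was called among the 26. Among the 9 measured small leucine-rich proteoglycans, FMOD, fibromodulin, rose by 1.00 ± 0.18 (adjusted p = 0.00112) and PODN, podocan, by 0.93 ± 0.16 (adjusted p = 0.00053), with LUM the other that rose and KERA the only 1 that fell.

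Skeletal muscle genes made up most of the largest falls. ACTC1, the cardiac-type actin that embryonic muscle also uses, had levels of 3.37, 4.50 and 6.38 in immobilised E15 cartilage, against 6.63, 7.48 and 7.69 in E15 controls and 8.99, 9.05 and 9.52 at E13. ACTC1 fell by 4.48 ± 0.38 (adjusted p = 2.91e-07). Of the 88 skeletal muscle genes listed, 52 were on the array and 32 passed the filter. Of those 32, 30 fell and none rose (median -2.18), and the same counts held with the array code as a block. The filter keeps genes that vary over the 23 arrays on the linear scale. Muscle genes low in every group drop out, so the share that fell may follow in part from the filter. The median was -2.11 in the femur and -2.23 in the tibia. With stage in the controls 23 of the 32 fell and 2 rose (median -1.09). TTN, the sarcomere spring titin, fell by 4.04 ± 0.44 (adjusted p = 5.45e-06), and MYBPC1, a myosin-binding protein, by 3.80 ± 0.28 (adjusted p = 7.1e-08), and neither was called with stage in the controls. TNNI1, slow troponin I, fell by 2.90 ± 0.14 (adjusted p = 1.85e-09) beside a stage change of -2.12. The members not called were TPM1, a tropomyosin of many cell types, at -0.03, and PVALB, a calcium-buffering parvalbumin, at 0.41. Probe sets of the near-identical myosin heavy chain genes may not separate them.

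Of the 9 measured myogenic regulators, 4 fell and none rose (median -0.29), and 2 fell with the array code as a block. MEF2A and MEF2C, transcription factors of muscle and other tissues, differed by -0.10 and -0.06 and were not called. MSC, musculin, a repressor of muscle gene activation, had levels of 3.97, 3.07 and 3.32 in immobilised femur and 3.26, 3.23 and 3.66 in immobilised tibia, against 6.51, 6.57 and 7.37 in E13 femur and 6.54, 7.08 and 7.01 in E13 tibia. E15 controls had 6.18 to 6.76. MSC fell by 3.43 ± 0.18 (adjusted p = 1.85e-09), with a stage change of -0.36 that was not called. MYOD1, the muscle determination factor, fell by 1.79 ± 0.21 (adjusted p = 1.12e-05) beside a stage change of -1.72. CHRNG, the embryonic subunit of the muscle acetylcholine receptor, which is the receptor DMB acts on, fell by 1.65 ± 0.15 (adjusted p = 9.93e-07). CHRND, another subunit, fell by 1.12 ± 0.20 (adjusted p = 0.000693). CHRNG levels were 3.01 to 4.18 in immobilised and 4.87 to 5.29 in E13 arrays, and CHRND levels 3.75 to 4.70 and 5.04 to 5.74. All lay below the array median, so neither gene was shown to be above background.

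Falls seen in immobilised cartilage alone reached beyond muscle genes. GATM, which makes the creatine precursor, fell by 2.91 ± 0.23 (adjusted p = 1.17e-07). ACKR4, a receptor that removes chemokines, had levels of 2.66 to 3.86 in immobilised cartilage, 5.46 to 6.47 in E15 controls and 5.60 to 6.18 at E13, and fell by 2.72 ± 0.25 (adjusted p = 6.19e-07). COL26A1, a collagen of the EMI domain family, fell by 1.87 ± 0.14 (adjusted p = 6.45e-08). Against E15 controls GATM, ACKR4 and COL26A1 differed by -2.40, -2.84 and -1.98. The loss of muscle marker level described above moved with these genes, and its part in their falls was not tested. CD44, the hyaluronan receptor, was lower in the tibia, with 6.97, 7.18 and 7.46 in immobilised against 8.52, 8.86 and 8.59 in E13 arrays. In the femur CD44 had 8.48, 7.93 and 8.69 in immobilised and 8.67, 8.55 and 8.62 in E13 arrays, and the changes of -1.45 and -0.25 did not differ by the test (adjusted p = 0.0675).

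Genes of glycolysis were mostly lower in immobilised E15 than in E13 cartilage. Of the 16 measured genes of glycolysis and of lactate or glucose transport, 9 fell and 2 rose (median -0.22), and with stage in the controls 2 fell and 1 rose (median -0.02). SLC2A1, the basal glucose transporter, had levels of 7.43, 7.64 and 7.79 in immobilised cartilage against 8.02, 8.29 and 8.46 at E13, and fell by 0.65 ± 0.09 (adjusted p = 6.57e-05). LDHA, lactate dehydrogenase, had 11.70 to 12.16 in immobilised cartilage, 12.43 to 12.48 in E15 controls and 12.27 to 12.50 at E13. LDHA fell by 0.39 ± 0.06 (adjusted p = 0.00029) and was 0.45 below E15 controls (adjusted p = 0.000182). PDK4, which shuts pyruvate out of the mitochondrion, rose by 1.16 ± 0.17 (adjusted p = 0.000162). With the array code as a block 5 of the 16 fell and 1 rose. Several glycolytic enzymes are abundant in muscle, whose markers fell in the same arrays, and the part of muscle RNA was not tested. Of the 44 measured oxidative phosphorylation genes 4 fell and none rose on the probe sets counted (median -0.12), and 1 fell with the array code as a block. The share that fell was near that of all probe sets called lower (8.48%).

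The core of the cartilage matrix changed little. Of the 18 measured cartilage matrix genes, 4 rose and none fell (median 0.10), and 1 rose with the array code as a block. ACAN, the aggrecan core protein, differed by -0.11 (95% interval -0.20 to -0.01, adjusted p = 0.117). Of the 33 measured proteoglycan synthesis genes, 6 fell and none rose (4 and 1 with the block), among them CHST1, a keratan sulphate sulphotransferase, by 0.69 ± 0.11 (adjusted p = 0.00031). None of the 20 measured chondrocyte transcription factors was called (median 0.03), although 2 rose and 4 fell in the femur alone. Of the 11 measured hedgehog and PTHrP genes, HHIP, an inhibitor of hedgehog ligands, rose by 0.55 ± 0.10 (adjusted p = 0.000736) and 1 fell. With stage in the controls 6 of those 11 fell.

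The signalling lists were counted with and without the array code as a block. Of 28 Wnt pathway genes 3 rose and 2 fell, near the shares of all probe sets (7.75% higher and 8.48% lower). FZD4, a frizzled receptor, had the largest rise at 1.04 ± 0.15 (adjusted p = 8.95e-05). FRZB, a secreted Wnt antagonist of cartilage, rose by 0.33 ± 0.05 (adjusted p = 0.000391). Of 27 BMP and TGF-beta genes 4 rose and 5 fell. BMP4, a ligand of limb mesenchyme, had 5.63, 5.45 and 5.69 in immobilised tibia against 6.55, 6.85 and 6.45 in E13 tibia. With the femur included its levels overlapped, at 5.45 to 6.88 in immobilised and 6.32 to 6.86 in E13 cartilage. Of 12 IGF and insulin genes 3 rose and none fell, and IGF1, the growth factor itself, rose by 0.82 ± 0.15 (adjusted p = 0.0012) in immobilised cartilage beside 0.65 with stage in the controls. Of 12 FGF genes 3 rose and 2 fell. Under the block none of the FGF genes rose and 1 fell, 1 BMP or TGF-beta gene rose and 1 fell, 2 Wnt genes rose and none fell, and 2 IGF genes rose and none fell.

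**Figure D5:**
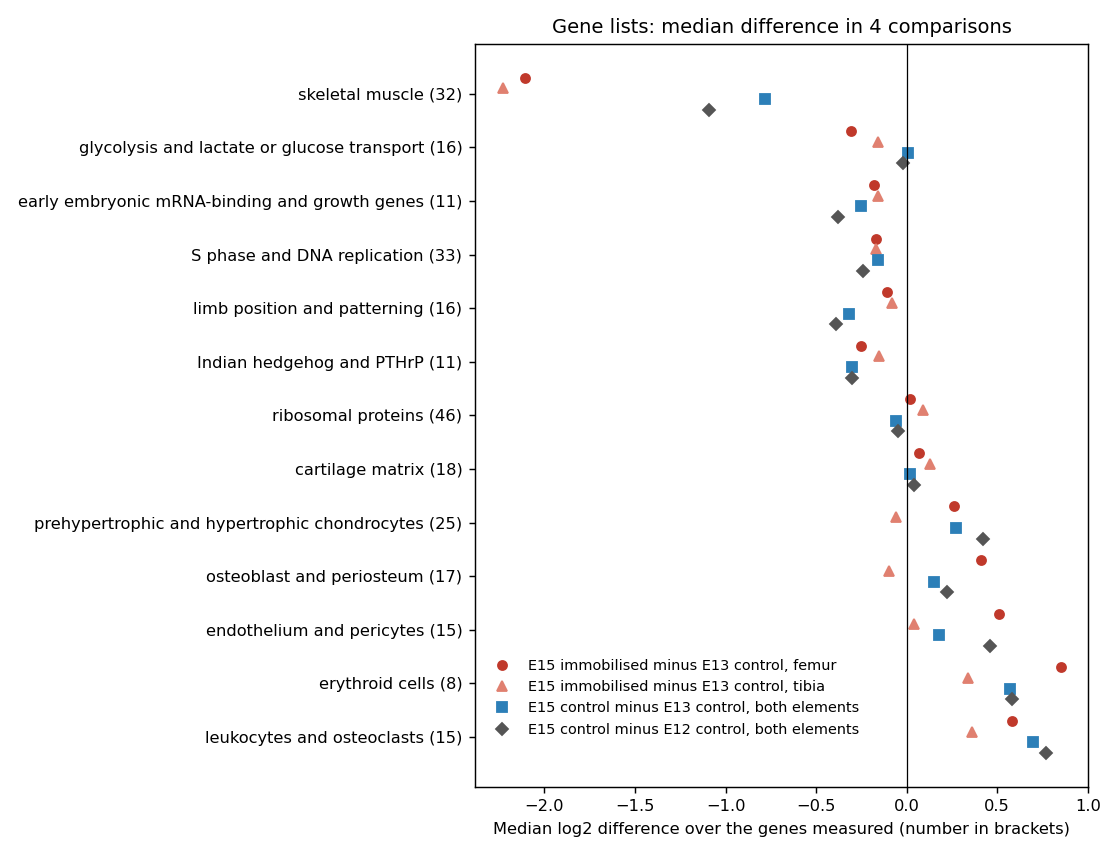
Median log2 difference (horizontal axis) of the measured genes of 13 lists, with the number measured in brackets, in immobilised E15 minus E13 control femur and tibia and, over both elements, in E15 control minus E13 control and E15 control minus E12 control cartilage. Skeletal muscle lies lowest in immobilised cartilage, at -2.11 in the femur and -2.23 in the tibia. The hypertrophic and osteoblast lists lie on opposite sides of 0 in the 2 elements, with tibia medians of -0.06 and -0.10. So did lists not drawn, among them tendon, joint and fibrous tissue (0.32 in the femur and -0.21 in the tibia). Comparisons that share arrays are not independent.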

How the data were processed

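RNA from growth plate cartilage was hybridised to Affymetrix chicken arrays. The authors normalised the arrays by RMA (affy, per the processing notes, versions not given in the sources used here) and deposited log2 expression values, 1 per probe set and array. RMA's quantile step gives all arrays nearly the same distribution, so a shift of most genes would not show. Probe sets were named from the platform annotation. Of 20804, 12300 had 1 gene symbol, 256 had several and 8248 had none, and unnamed probe sets were counted but not described.

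Groups came from the labels. Probe sets with an SD above 10 on the linear scale over the 23 arrays were kept (11004), as in the study's own filter. A linear model with 8 means (treatment and age by element) was fitted in limma 3.58.1 under R 4.3.3, with moderated variances (15 residual degrees of freedom) and Benjamini-Hochberg adjustment over the 11004 probe sets. Calls are at an adjusted p under 0.05, two-sided. Intervals are 95% limits from the same fit, and the difference between elements is femur minus tibia change. The fit was checked on simulated data. Only a pooled sample stands behind each array, and their number limits the precision.

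Genes were named by a rule. It took the largest non-overlapping changes, up to 4 members of each list by p, the held, missing and immobilised-only genes by size, and the genes called between elements. Held, missing and immobilised-only genes were defined by their calls, so those calls add no support. Chosen outside it after their values were seen were ANXA1, ANGPTL2, ITIH5, PLD5, LIMK2, ADAMDEC1, STC1, CHRDL2, PHOSPHO1, TMEM119 and CD44, and OSR1, COL10A1, ACAN, TPM1 and PVALB were named as list members. For a list gene with several probe sets, the 1 with the highest mean level was counted, and others are given for some genes only. Probe sets called but not counted included 1 of ND4L (1.09, adjusted p = 0.000106) and 1 of ENPP1 (0.58, adjusted p = 0.041), both higher. Also among them were 1 of RPL21 (-0.83, adjusted p = 0.00367) and 1 of CHADL (-0.49, adjusted p = 0.0483), both lower. The comparison, lists and members were chosen with earlier results of these data known. Alternatives were another normalisation, no filter, the array code or replicate number as a block, arrays of this comparison alone, SAM-style tests and leaving out each array. Same-numbered immobilised and E13 arrays correlated at -0.104 to 0.0734 in their deviations from group means, so numbers were not taken as pairs. Whether femur and tibia arrays share embryos is not given in the sources used here.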

Additional observations from a re-analysis of the deposited data

Results flagged for a closer look

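For 7 genes taken by the naming rule the femur and tibia changes between immobilised E15 and E13 cartilage differed by the test of the difference itself. OvoDA1, an ovodefensin of birds, changed by 2.70 in the femur and by 0.39 in the tibia, a difference of 2.31 (adjusted p = 0.00673). LIPC, hepatic lipase, changed by 1.62 and -0.63, a difference of 2.25 (adjusted p = 0.0221). SGMS2, a sphingomyelin synthase linked to bone mineral in humans, changed by 1.13 and -0.67, a difference of 1.80 (adjusted p = 0.0344). IFITM5 gave a difference of 1.78 (adjusted p = 0.00673). OGFOD3 changed by 2.37 and 0.60, a difference of 1.77 (adjusted p = 0.0221), while its other probe set changed by 0.12 over both elements. LPAR3, a receptor for lysophosphatidic acid, changed by 1.26 and -0.48, a difference of 1.74 (adjusted p = 0.028). SCD5, a stearoyl-CoA desaturase, changed by -0.64 and 0.08, a difference of -0.73 (adjusted p = 0.0475).

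These differences depended on single arrays to different degrees. OvoDA1 and IFITM5 kept the call in all 12 fits that left out 1 array, OGFOD3 in 10, LIPC in 6, LPAR3 in 2, SGMS2 in 1 and SCD5 in 0, with the highest adjusted p at 0.144 for SCD5, without immobilised tibia replicate 3. With the array code as a block none of the 7 was called (adjusted p 0.0684 to 0.36). PHOSPHO1 and TMEM119, chosen after their values were seen, passed the same test, with differences of 1.42 and 0.91.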

How the results depend on the processing

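Each of the 36 alternatives repeated only the results it bore on, and some gave counts of calls alone. Of 4042 repeats of named gene changes, 3745 kept their direction and side of the threshold, 297 no longer passed it and 0 reversed. Of 714 repeats of list medians, 701 moved by less than the spread between arrays. With the array code as a block the calls over both elements numbered 789, those in the femur 226, those between elements 0 and the stage-linked genes called the same way 396 (724 without the block). With the replicate block the calls between elements numbered 18, and no other count of calls left 1.5 times its main value. Without the filter 20 were called between elements. Restricting the stage-linked genes to 1 element was chosen after seeing the data. It gave 109 of 969 called the same way in the tibia and 387 of 1199 in the femur. Over all probe sets 1.17% were called higher and 2.3% lower in the tibia, and 6.49% and 6.54% in the femur.

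Leaving out 1 array gave 1396 to 1824 calls over both elements, 540 to 782 stage-linked genes called the same way, and 886 to 1448 calls in the femur (lowest without E13 femur replicate 1). The tibia gave 211 to 347 calls, with 211 without immobilised tibia replicate 1, 240 without immobilised tibia replicate 3, 235 without E13 tibia replicate 2 and 242 without E13 tibia replicate 3. Calls between elements ranged from 11 to 67, against 40 with all arrays, and moved by over 1.5 times without any array but immobilised femur replicate 3. E15 control against E13 control gave 626 to 1446 calls, with 718 without E15 control femur replicate 1 and 626 without replicate 2. Immobilised against control E15 gave 672 to 1263, with 715 and 672 without the same arrays. E15 control against E12 control gave 1599 to 2709, lowest without E15 control femur replicate 2. The cause was not tested.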

Other observations

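Genes of fat metabolism rose in immobilised E15 cartilage. Of the 7 measured adipocyte genes, 4 rose and none fell relative to E13 (median 0.49), and 4 rose with stage in the controls (median 0.55). CD36, a fatty acid transporter that macrophages and endothelium also carry, had levels of 7.97, 8.17 and 8.41 (lowest, median and highest) in immobilised E15 cartilage, against 6.09, 6.86 and 7.29 in E13 cartilage, and rose by 1.44 ± 0.21 (adjusted p = 0.000132). FABP5, a fatty acid binding protein, rose by 0.89 ± 0.16 (adjusted p = 0.000834). PPARG, the transcription factor of fat cell formation, rose by 1.08 ± 0.21 (adjusted p = 0.00212), but with the array code as a block its adjusted p was 0.102. The leukocyte and endothelial marker levels were also higher in these arrays, and their part in the rise was not tested.

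A few other changes fell outside the lists. RASD1, a Ras-like protein first known as dexamethasone-induced, had levels of 6.99, 7.44 and 7.78 in immobilised E15 cartilage, against 6.47 to 7.11 in E15 controls and 5.12, 5.66 and 6.08 at E13. It rose by 1.76 ± 0.13 (adjusted p = 9.25e-08), beside 1.53 with stage in the controls. CHRDL2, a secreted BMP antagonist of cartilage and joints, rose by 0.94 ± 0.10 (adjusted p = 5.85e-06), with a stage change in the controls of 0.29 that was not called.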
